A study of Mus musculus with 2 samples.

Results

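The genes described here build and run the transport system of the primary cilium and carry Hedgehog signalling components through it. They were chosen by name: every measured Ift or Bbs gene with a number (22 genes), and 20 further genes for ciliary motors, retrograde transport, the transition zone and ciliary Hedgehog regulators. All 42 were found among 23930 measured genes. They were measured in 2 bulk RNA libraries, called library 1 and library 2, of cranial suture tissue (coronal, sagittal and lambdoid) from wildtype mouse pups at postnatal day 3. Both libraries belong to 1 group and carry the same batch label, so no conditions could be compared, and the labels do not say whether separate pups or pools were used. Differences between the libraries therefore describe the spread of this tissue sample, which may be partly technical. The labels name suture stem cells as the cell type, but the extraction protocol describes suture tissue and no sort.

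The primary cilium is a single, non-motile antenna on most mesenchymal cells, including cells of bone and cartilage. It has no ribosomes, so its proteins must be brought in, and intraflagellar transport (IFT) trains carry many of them in and out. The trains, which hold the IFT-A and IFT-B complexes, move to the tip on kinesin-2 motors and return on dynein-2. The BBSome is a coat that takes membrane receptors out of the cilium. In vertebrates, Hedgehog signals are read inside this compartment: the receptor Ptch1 leaves, the transducer Smo enters, and Gli factors are processed along the way. Inherited defects of IFT-A genes are known for cranioectodermal dysplasia, a disorder in which skull sutures can close early. Defects of EVC and EVC2 are known for Ellis-van Creveld syndrome, a skeletal dysplasia.

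Values are CPM, the reads of a gene per 1000000 reads of its library, and where a pair of values is given the first is of library 1. Library 1 held 5663344 reads and library 2 held 15802610. The libraries came from an amplicon panel that reads 1 short stretch of each gene, so values do not scale with transcript length. Amplicons differ in efficiency, so the ranking of genes against each other is weaker evidence than the comparison of a gene with itself across libraries. Of the 5 suture mesenchyme markers measured, all reached 1 CPM in both libraries, as did all 6 skeletal muscle and all 6 chondrocyte markers, so the tissue held more than stem cells. In such bulk tissue, fewer cells of a type and less RNA per cell cannot be told apart.

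The machinery was present almost in full. Of the 42 members, 40 reached 1 CPM in both libraries (95.2%), whereas 55.0% of all targets did, and 21 reached 10 CPM in both, as did 34.6% of all targets. The median member stood at 14.1 CPM, below the median of 21.4 CPM over the 13157 targets that reached 1 CPM in both libraries. Summed over all members, the genes made up 840 CPM in library 1 as against 936 CPM in library 2. The members kept much of their order between the libraries, with a Spearman rho of 0.903 and a Pearson r of 0.890 on log2(CPM + 1) over 41 members. Over the 14097 targets averaging 1 CPM or more, rho was 0.911 and r was 0.908. Both are correlations across genes, whose amplicons are shared by the libraries, and genes are not independent replicates.

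**Figure D1:**
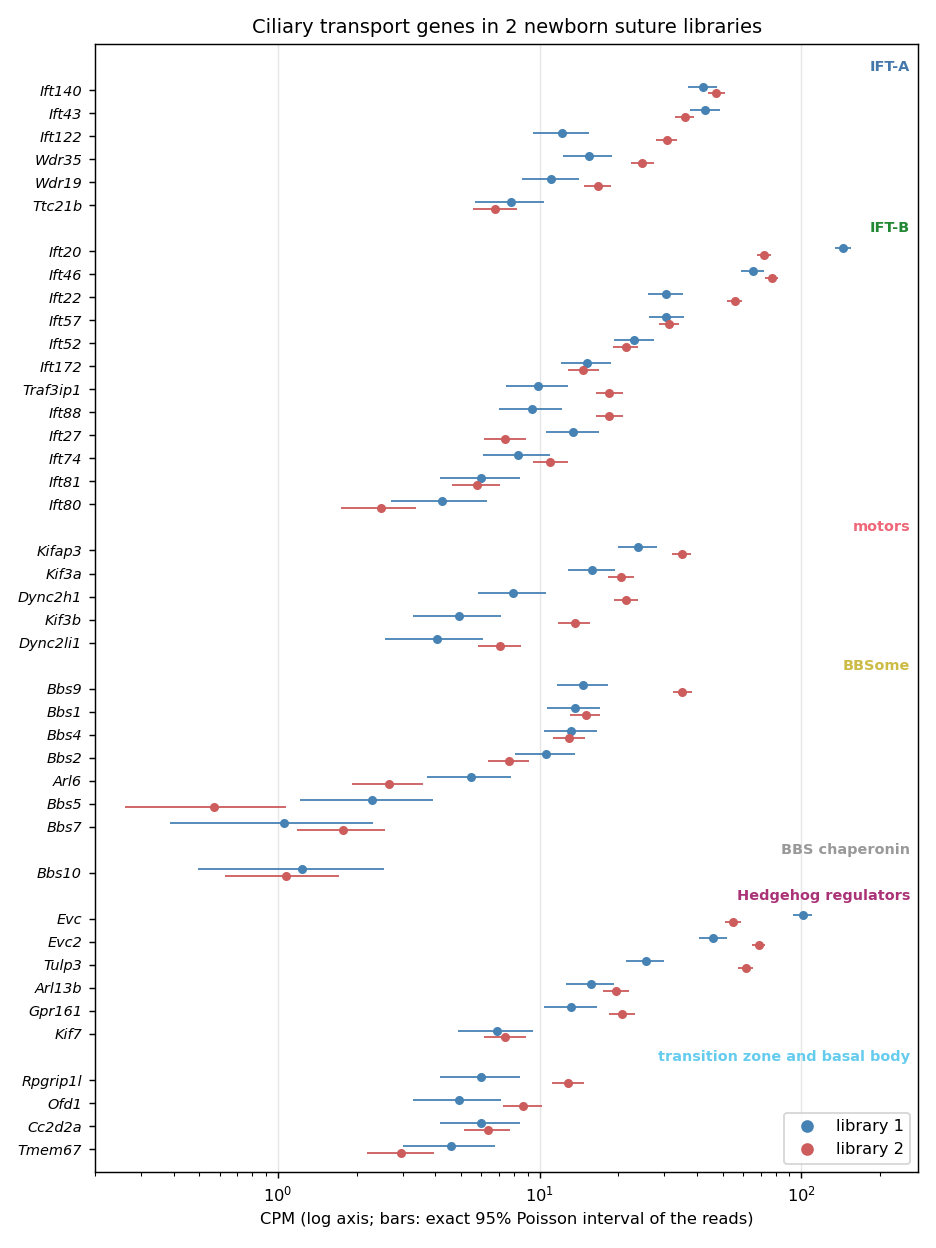
CPM of 41 ciliary transport and Hedgehog-trafficking genes in library 1 (blue) and library 2 (red), on a log axis and grouped by role, with bars for the exact 95% Poisson interval of the reads. Values run from 0.570 CPM (Bbs5, library 2) to 144 CPM (Ift20, library 1), and Bbs12, with 0 reads in both libraries, is not drawn.

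Genes of the IFT-B complex spanned a wide range. The highest gene stood 34.1-fold above the lowest in library 1 and 31.3-fold in library 2, beside 13.8-fold and 61.6-fold for the BBSome. Ift20, a small subunit that also sits at the Golgi and helps to sort ciliary membrane proteins, was the highest member of all, with 144 CPM in library 1 but 72.0 CPM in library 2. Its mean was 108 CPM ± 51.3 (SD, n = 2), above that of 88.9% of the targets detected in both libraries. Its CPM was 2.01-fold higher in library 1 (interval 1.83 to 2.20, adjusted p = 9.42e-48). The gene spans 78536361 to 78541737 of mm10 chromosome 11. This p-value and those that follow come from an exact two-sided binomial test of the reads, adjusted by Benjamini and Hochberg over all 23930 targets. It compares 2 libraries, and its intervals cover counting error only, as the reads carry no molecular identifiers.

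Ift46, a core subunit of the same complex, followed at 65.2 and 77.1 CPM. Ift22, a Rab-like small GTPase of the complex, gave 30.4 and 55.6 CPM, the reverse of Ift20 (1.83-fold higher in library 2, interval 1.55 to 2.17, adjusted p = 1.75e-13, exact binomial test). Ift88, the subunit whose loss in mice is the classic way to remove cilia, stood at 9.36 and 18.5 CPM. Traf3ip1, which codes for IFT54, stood at 9.89 and 18.5 CPM. These 2 genes were thus nearly level with each other in both libraries, and both were higher in library 2, with adjusted p of 6.49e-06 and 2.37e-05 in the exact binomial test. Ift27, a small GTPase needed to let the BBSome and Hedgehog receptors leave the cilium, went the other way, with 13.4 CPM against 7.40 CPM (adjusted p = 3.40e-04, exact binomial test).

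Among the IFT-B genes, Ift57, Ift52, Ift172 and Ift81 showed almost equal values in the 2 libraries. Ift57 gave 30.5 and 31.3 CPM, Ift52 23.0 and 21.3 CPM, and Ift172, the large peripheral subunit, 15.2 and 14.7 CPM. Ift74 and Ift81, whose proteins form a pair that binds tubulin, gave 8.30 and 11.0 CPM and 6.00 and 5.76 CPM. Ift80, a gene of skeletal ciliopathies, was the lowest IFT-B gene at 4.24 and 2.47 CPM. Its ratio of library 1 to library 2 was 1.72 (interval 0.988 to 2.93), so the lack of a call does not show equal levels. For these 6 genes the exact binomial test made no call, with adjusted p from 0.109 (Ift80) to 1.00. Over the 12 IFT-B genes, 2 were called higher in library 1, 4 higher in library 2 and 6 in neither direction. The 6 called of 12 stand beside 37.0% of all targets and 59.6% of the targets averaging 1 CPM or more, the level that each IFT-B gene reached.

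Genes of the IFT-A complex lay in a narrower band. Ift140, a core subunit, gave 42.0 and 47.4 CPM, and Ift43, the smallest subunit, 42.9 and 35.9 CPM. Neither was called in the exact binomial test (adjusted p = 0.241 and 0.0554). Ift122, another core subunit, gave 12.2 and 30.6 CPM and so was 2.51-fold higher in library 2 (interval 1.95 to 3.28, adjusted p = 2.81e-14, exact binomial test). The gene spans 115853470 to 115926699 of mm10 chromosome 6. Wdr35 (IFT121) and Wdr19 (IFT144) were higher in library 2 as well, at 15.4 against 24.7 CPM and 11.1 against 16.7 CPM. Ttc21b (IFT139) was lowest at 7.77 and 6.77 CPM. Thus 3 of the 6 IFT-A genes were called (beside 59.6% of targets averaging 1 CPM or more), each of them higher in library 2.

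All 5 motor genes had higher values in library 2, and 4 were called there, beside 32.9% of targets averaging 1 CPM or more. Kifap3, the non-motor subunit of kinesin-2, was highest at 23.8 and 35.0 CPM. Its motor subunits Kif3a and Kif3b stood at 15.9 and 20.5 CPM and at 4.94 and 13.6 CPM. Kif3b thus differed 2.75-fold between the libraries (interval 1.85 to 4.24, adjusted p = 1.33e-07, exact binomial test), while Kif3a was not called (adjusted p = 0.0862, exact binomial test). Dync2h1, the heavy chain of the retrograde dynein-2 motor, gave 7.95 and 21.4 CPM and so was 2.69-fold higher in library 2 (interval 1.97 to 3.76, adjusted p = 2.57e-11, exact binomial test). The gene spans 6928503 to 7184446 of mm10 chromosome 9. Its light intermediate chain gene Dync2li1 gave 4.06 and 7.09 CPM, so the less abundant dynein-2 subunit moved in the same direction (adjusted p = 0.0399, exact binomial test).

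BBSome genes were lower on the whole, with a median of 9.13 CPM over 7 genes. Bbs9, a scaffold subunit, was the highest at 14.7 and 35.1 CPM (2.40-fold higher in library 2, interval 1.90 to 3.06, adjusted p = 3.61e-15, exact binomial test). Bbs1, the subunit that binds the recruiting GTPase, gave 13.6 and 15.0 CPM, and Bbs4 13.2 and 13.0 CPM. Bbs2 followed at 10.6 and 7.66 CPM. Arl6, that recruiting GTPase, gave 5.47 and 2.66 CPM and was higher in library 1 (adjusted p = 0.0101, exact binomial test). Bbs9 and Arl6 therefore went in opposite directions, and Bbs1, Bbs4 and Bbs2 were not called.

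The low end of the set was made up of BBS genes. Bbs5 rested on 13 reads in library 1 and 9 in library 2, or 2.29 and 0.570 CPM, and was higher in library 1 (ratio 4.03, interval 1.59 to 10.7, adjusted p = 0.00424, exact binomial test). On the log2(CPM + 1) scale it was the only member past 2-fold in that direction, while by plain CPM ratio Arl6 (2.06) and Ift20 (2.01) were past it too. Bbs7 gave 6 and 28 reads, or 1.06 and 1.77 CPM. The chaperonin-like Bbs10, which helps to assemble the BBSome, gave 7 and 17 reads, or 1.24 and 1.08 CPM. Bbs12, of the same chaperonin group, had 0 reads in both libraries, which for counting error (3 reads) allows levels of up to 0.530 and 0.190 CPM. Expression of Bbs12 was thus not detectable at this depth with this amplicon.

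Regulators that act on Hedgehog signalling inside the cilium were the most abundant role group, with a median of 30.5 CPM over 6 genes. Evc and Evc2 form a ring near the base of the cilium that passes the signal from Smo to the Gli factors. Evc gave 101 and 54.9 CPM, or 78.0 CPM ± 32.6 (SD, n = 2), 1.84-fold higher in library 1 (interval 1.65 to 2.05, adjusted p = 7.70e-27, exact binomial test). Evc2 gave 45.9 and 68.7 CPM, or 57.3 CPM ± 16.1 (SD, n = 2), and was higher in library 2 (ratio of library 1 to library 2 0.668, interval 0.581 to 0.766, adjusted p = 1.06e-08, exact binomial test). The partners thus went in opposite directions, and Evc was the only one of the 6 regulators that was higher in library 1.

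Evc and Evc2 are divergent neighbours. In the annotation of mm10 chromosome 5, Evc lies on the minus strand from 37289098 to 37336894 and Evc2 on the plus strand from 37338499 to 37425055. Their RefSeq start sites (GRCm38.p6) are 1597 bases apart. The 250 bases before each start are shown because the genes share this interval and yet differed in direction. Each is written 5′ to 3′ on the strand of its gene, with capitals for a core binding site of RFX factors (GTTGCC or its reverse complement GGCAAC), a motif known from promoters of ciliary genes.
Evc, chr5:37336882-37337131, minus strand: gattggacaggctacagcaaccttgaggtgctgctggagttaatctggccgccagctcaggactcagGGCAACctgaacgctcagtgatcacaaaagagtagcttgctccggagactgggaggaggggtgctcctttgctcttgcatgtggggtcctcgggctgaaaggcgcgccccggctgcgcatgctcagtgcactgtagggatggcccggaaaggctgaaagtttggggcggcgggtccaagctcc
Evc2, chr5:37338228-37338477, plus strand: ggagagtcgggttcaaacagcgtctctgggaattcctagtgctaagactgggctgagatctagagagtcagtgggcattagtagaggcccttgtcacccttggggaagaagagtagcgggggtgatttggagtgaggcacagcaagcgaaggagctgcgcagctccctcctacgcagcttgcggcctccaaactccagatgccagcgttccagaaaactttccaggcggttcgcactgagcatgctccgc
The stretch before Evc holds 1 match, 183 bases before the start, and the stretch before Evc2 holds none, which says only that these letters are not in this window.

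The other regulators were higher in library 2 or nearly level. Tulp3, the adaptor that brings receptors such as Gpr161 into the cilium on IFT-A, gave 25.4 and 61.3 CPM (2.41-fold higher in library 2, interval 2.02 to 2.89, adjusted p = 2.45e-26, exact binomial test). The gene spans 128321161 to 128355851 of mm10 chromosome 6. Gpr161, a receptor that keeps Hedgehog signalling off through protein kinase A, gave 13.2 and 20.7 CPM (adjusted p = 0.00134, exact binomial test). Arl13b, a GTPase of the ciliary membrane, gave 15.7 and 19.6 CPM, and Kif7, the kinesin that organizes the ciliary tip for Gli factors, 6.89 and 7.40 CPM. Tulp3 and its cargo Gpr161 were thus both higher in library 2, and Arl13b and Kif7 were not called (adjusted p = 0.159 and 1.00, exact binomial test).

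Genes of the ciliary gate were low and close together, with means from 3.78 to 9.46 CPM. Rpgrip1l, a transition zone protein, gave 6.00 and 12.9 CPM, 2.15-fold higher in library 2 (interval 1.49 to 3.19, adjusted p = 4.25e-05, exact binomial test). Ofd1, a centriole protein encoded on the X chromosome, gave 4.94 and 8.67 CPM and was also higher in library 2 (adjusted p = 0.0181, exact binomial test). Cc2d2a gave 6.00 and 6.33 CPM and the membrane protein gene Tmem67 4.59 and 2.97 CPM. For these last 2 genes no call was made.

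Across all members, 5 were called higher in library 1, 17 higher in library 2 and 20 in neither direction by the exact binomial test. Over all targets, 17.1% were called higher in library 1 and 20.0% higher in library 2 (37.0% in either direction). Among targets averaging 1 CPM or more, where 41 of the members lie, these shares were 26.8% and 32.9%. The share of members called in either direction (52.4%) was below the 59.6% of those targets, so the number of calls does not set the members apart. By size, 1 member (Bbs5) was at least 2-fold higher in library 1 on the log2(CPM + 1) scale, beside 4.64% of all targets and 7.49% of those averaging 1 CPM or more. Ift20 missed this limit narrowly, with a difference that rounds to 1.00. At least 2-fold higher in library 2 were 5 members (Dync2h1, Kif3b, Ift122, Tulp3 and Bbs9), beside 7.12% of all targets and 11.2% of those averaging 1 CPM or more. Rpgrip1l lay just inside the limit at -0.99. On this scale, which understates the change of low genes, the median difference (library 1 minus library 2) was -0.24 over 41 members and -0.07 over the 14097 targets.

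**Figure D2:**
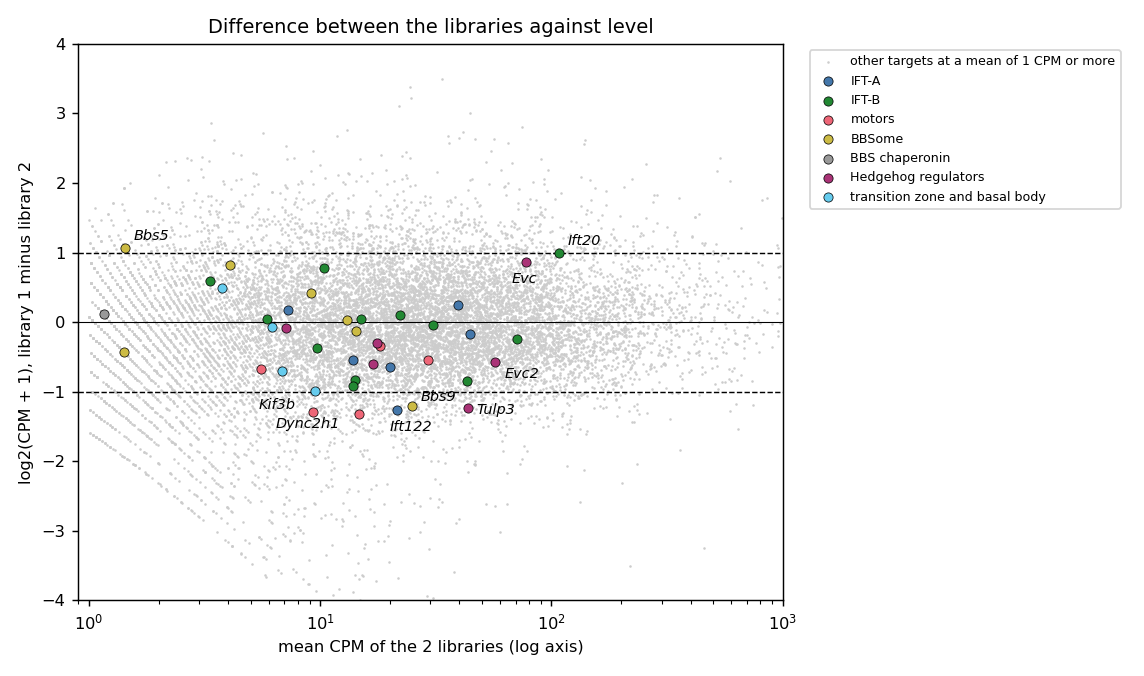
Difference between the libraries on log2(CPM + 1) against mean CPM (log axis) for 41 members, coloured by role, over all other targets averaging 1 CPM or more (grey), with dashed lines at 2-fold, where targets beyond the axes are not drawn. Members lie between -1.32 (Dync2h1) and 1.07 (Bbs5), inside the cloud of other targets.

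Ratios of partner subunits were set beside each other in the 2 libraries. The efficiency of an amplicon cancels when a ratio is compared between the libraries, so 9 pairs of genes whose proteins work in 1 complex were compared. The pairs were chosen with their levels known, some of them with partners already seen to go opposite ways, so their number says nothing about partner subunits in general. For 6 of the 9 pairs the exact 95% intervals of the read ratio, not adjusted for their number, did not overlap between the libraries. Other pairs of genes were not examined, so no background share of pairs can be given. The 59.6% of single targets averaging 1 CPM or more that were called come from an adjusted test of 1 gene, an unlike measure. Ift20 reads outnumbered those of its binding partner Traf3ip1 14.6 to 1 in library 1 (interval 11.1 to 19.5) and 3.88 to 1 in library 2 (3.41 to 4.43). Evc reads outnumbered Evc2 reads 2.20 to 1 in library 1 (1.90 to 2.56), while in library 2 the ratio was 0.799 (0.730 to 0.875). The order of the Evc pair thus turned over. Kif3a to Kif3b changed from 3.21 (2.08 to 5.10) to 1.51 (1.26 to 1.80), Ift122 to Ift140 from 0.290 (0.218 to 0.380) to 0.645 (0.574 to 0.724), and Bbs2 to Bbs9 from 0.723 (0.510 to 1.02) to 0.218 (0.178 to 0.266). Ift52 to Ift88 went from 2.45 (1.77 to 3.44) to 1.15 (0.981 to 1.35). The intervals overlapped for Kif3a to Kifap3 (0.667 and 0.586), Dync2h1 to Dync2li1 (1.96 and 3.02) and Ift74 to Ift81 (1.38 and 1.91). An interval that overlaps does not show that a ratio was kept.

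**Figure D3:**
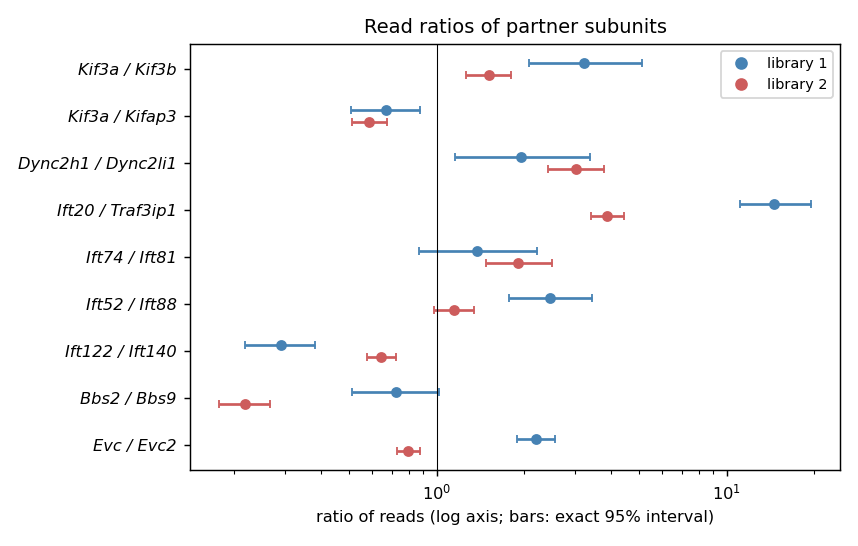
Ratio of reads of 9 pairs of partner subunits in library 1 (blue) and library 2 (red) on a log axis, with exact 95% intervals that cover counting error only. The intervals are apart for 6 pairs, among them Evc to Evc2 (2.20 and 0.799) and Ift20 to Traf3ip1 (14.6 and 3.88).

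RFX core sites were searched on both strands in the 300 bases around each start (250 before and 50 after), for 37 members with a RefSeq promoter. No promoter was matched for Dync2li1, Ift122, Ift80, Ift81 and Tmem67. At least 1 core site was present for 14 of 37 members (37.8%). A core site was held by 14.1% of all 27025 genes with a RefSeq promoter, and by 15.0% of the 9962 detected in both libraries. A core site followed by its exact reverse complement within 3 bases was found for 0 members and for 0.189% of all genes. Paired sites with a mismatch were not searched for, so these shares do not cover them. The sites before a start are shown with their flanks, as they occurred in members of several roles. Capitals mark the core site, and the number in brackets is the position of its first base before the RefSeq start.
Arl13b (-181), chr16:62847199-62847238, minus strand: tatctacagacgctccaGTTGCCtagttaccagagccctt
Bbs7 (-121), chr3:36613488-36613527, minus strand: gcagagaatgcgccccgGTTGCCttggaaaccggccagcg
Ift140 (-109), chr17:25015960-25015999, plus strand: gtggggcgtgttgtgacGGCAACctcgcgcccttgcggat
Kif3a (-98), chr11:53567254-53567293, plus strand: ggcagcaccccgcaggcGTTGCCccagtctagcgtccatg
Ift57 (-87), chr16:49699190-49699229, plus strand: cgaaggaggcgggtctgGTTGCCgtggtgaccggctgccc
Ift57 (-60), chr16:49699217-49699256, plus strand: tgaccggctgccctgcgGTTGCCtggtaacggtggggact
Traf3ip1 (-79), chr1:91494572-91494611, plus strand: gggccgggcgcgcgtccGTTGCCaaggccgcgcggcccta
Ift27 (-9), chr15:78174082-78174107, minus strand: aaggcgggttgatgatgGTTGCCagg
With the site before Evc, 8 members held 9 such sites upstream of the RefSeq start. A further 6 members (Bbs1, Bbs5, Dync2h1, Ift172, Ift88 and Wdr35) held one within the 50 bases after it. By the GENCODE coordinates, the Ift27 site and the Ift57 site at -60 lie within the gene. The members with a core site had a median level of 14.8 CPM and a median difference of -0.23 on the log2 scale, and the 23 without one had 13.1 CPM and -0.30. A match is a description of letters and does not show binding.

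Other genes of the same system, which the choice of members left out, were measured at like levels. Of 12 further IFT and dynein-2 subunits, 11 reached 1 CPM in both libraries, led by the shared dynein light chain genes Dynll1 (219 and 164 CPM) and Dynlrb1 (103 and 72.6 CPM), with Ttc30a2 lowest (0.530 and 1.52 CPM). In the exact binomial test 5 of these 12 were higher in library 1 and 1 in library 2. Of the targets averaging 1 CPM or more, 26.8% were called higher in library 1 and 32.9% in library 2. Of 4 further BBS genes, Bbip1 (16.4 and 18.8 CPM) and Ttc8 (10.9 and 18.0 CPM) led, and Trim32 had 0 reads in both libraries. Of 17 further transition zone genes 16 were detected, led by Tctn3 (19.4 and 22.7 CPM) and Mks1 (17.7 and 17.2 CPM), with Tctn1 lowest (0.883 and 0.949 CPM). There 3 genes were called in each direction (35.3% called, beside the same 59.6%) and 11 were not called. Tmem231 was the transition zone gene past 2-fold at 10 CPM or more (6.18 and 15.5 CPM).

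Genes of Hedgehog reception and response had a higher median than the members (14.1 CPM), though amplicons of different genes differ in efficiency. The 3 Hedgehog ligand genes had a lower median, 5.49 CPM. Of 11 genes of Hedgehog reception and response, with a median of 62.7 CPM, 1 was called higher in library 1, 6 higher in library 2 and 4 in neither direction. The share called was 63.6%, near the 59.6% of targets averaging 1 CPM or more. Smo gave 132 and 206 CPM, Ptch1 65.5 and 121 CPM and Gli1, a target gene of the pathway, 32.0 and 64.4 CPM. Gli2, the main activator, gave 12.0 and 37.9 CPM, and Gli3, the main repressor, 65.5 and 59.9 CPM. Gas1, a co-receptor, gave 94.3 and 39.4 CPM and so went against Smo and Ptch1, as Evc went against Evc2. All 14 further genes of ciliary Hedgehog signalling were detected, led by the protein kinase A subunit genes Prkaca (565 and 364 CPM) and Prkar1a (539 and 354 CPM), with Efcab7, whose protein tethers the Evc ring, lowest at 4.59 and 4.68 CPM. In that list 3 of the 14 genes were called higher in library 1 and 4 higher in library 2. The shares for targets averaging 1 CPM or more were 26.8% and 32.9%. The adenylyl cyclase gene Adcy5 was past 2-fold (22.6 and 47.9 CPM).

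Markers of other ciliated cells also differed between the libraries. IFT, motor and BBS genes are used by motile cilia of airway and ependymal cells and by the sensory cilia of olfactory neurons as well. Of 16 genes of the motile axoneme, 15 were higher in library 2 and 12 (75.0%) were called. Among targets averaging 1 CPM or more, 32.9% were called higher in library 2. Levels of the axoneme genes summed to 28.8 and 175 CPM. Dnah5, a dynein of the beating axoneme, gave 0.883 and 34.0 CPM, Dnah9 0.883 and 29.0 CPM, and Foxj1, the master regulator of motile cilia, 3.71 and 29.2 CPM. Rsph9 gave 4.77 and 15.4 CPM, and Spag6 was at 0 in both libraries. All 7 olfactory sensory neuron markers were higher in library 2, with summed levels of 96.8 and 531 CPM, and Omp, their defining marker, gave 11.1 and 247 CPM. No photoreceptor marker of 4 reached 1 CPM in both libraries, and Pde6b was at 0. The part of these cells in the higher values of Dync2h1, Kif3b, Ift122, Tulp3 and Bbs9 in library 2 was not tested.

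Tissue markers moved as well. Of the 5 suture mesenchyme markers 3 were called higher in library 2 and 1 in library 1, with a median difference of -0.87, and their levels summed to 216 and 284 CPM. Six2, a suture progenitor marker, gave 18.2 and 75.5 CPM, while Twist1, a transcription factor of suture patency, gave 124 and 72.8 CPM. Of 6 skeletal muscle markers 5 were higher in library 1, summing to 32821 and 9884 CPM, and all 6 chondrocyte markers were higher in library 2, summing to 1076 and 3580 CPM. All 5 neuron markers were higher in library 2 (170 and 652 CPM summed), as were the 5 osteoblast markers (120091 and 134518 CPM). Col1a1 alone made up 119187 and 132878 CPM of the osteoblast sums. Of the 5 proliferation markers 4 were called higher in library 1 (415 and 276 CPM summed), as were 3 of 4 erythroid (1460 and 1247 CPM) and 2 of 4 endothelium markers (572 and 420 CPM). Calls in both directions were made among the 4 macrophage and the 4 keratinocyte markers. These counts of called markers stand beside 26.8% of targets averaging 1 CPM or more called higher in library 1 and 32.9% in library 2. The part of these tissues in the differences of the members was not tested. Member groups had medians from -0.68 (motors) to 0.11 (Bbs10 alone) on the log2 scale. Marker medians were larger in size for the olfactory (-2.84), skeletal muscle (1.94), neuron (-1.45), chondrocyte (-1.42), osteoblast (-1.02) and suture mesenchyme (-0.87) lists, as was that of the axoneme genes (-1.59). They were smaller than that of the motors for proliferation (0.60), endothelium (0.47), erythroid (0.46), keratinocyte (-0.45) and macrophage (0.04) markers.

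**Figure D4:**
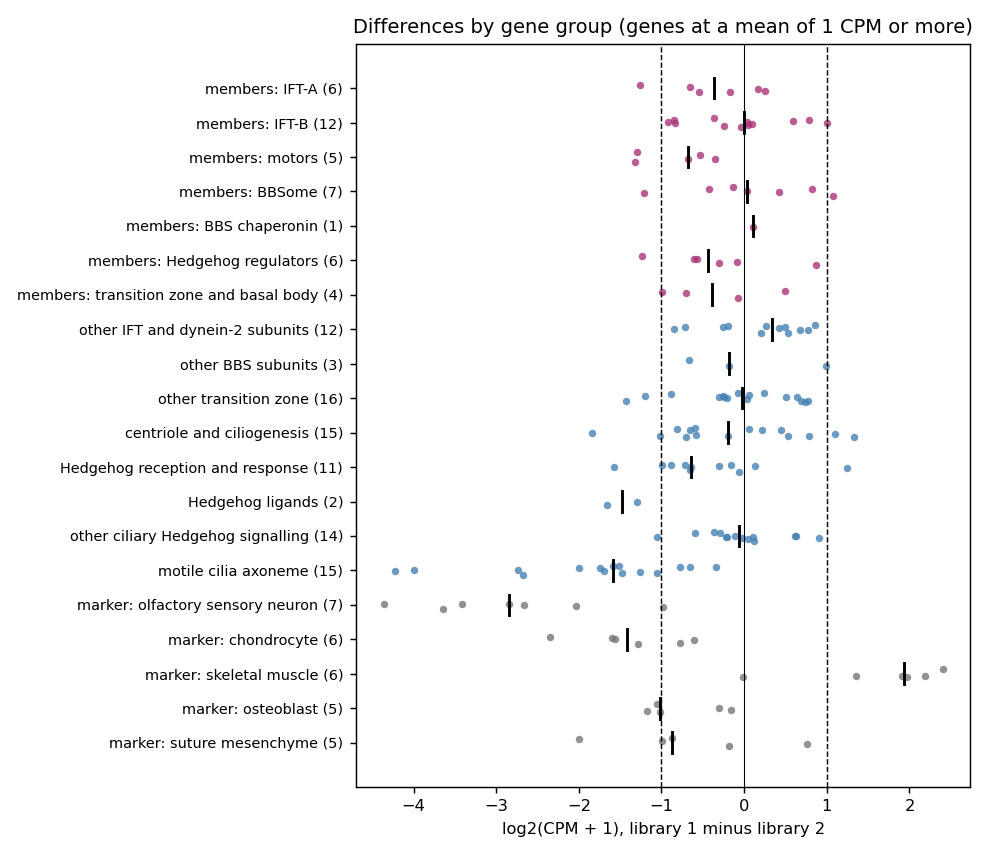
Differences between the libraries on log2(CPM + 1) by gene group, for genes averaging 1 CPM or more, with the number of genes in brackets, 1 point per gene and a black bar at the median. Member groups (purple) have medians from -0.68 to 0.11, the axoneme list lies at -1.59 and the olfactory and skeletal muscle markers at -2.84 and 1.94.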

How the data were processed

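RNA of 2 suture libraries was measured with the Ion AmpliSeq mouse transcriptome panel, per the labels' protocols. The authors deposited CPM values, reads scaled by each library's total, for 23930 targets. Per the submitters' processing notes the build is mm10, and the sources used here give no aligner, counter or filter. Within 0.01 of a read, 100% of the nonzero values in each library were multiples of what 1 read is worth, so reads were recovered. They sum to 5663344 and 15802610, and 1 read is worth 0.177 and 0.0633 CPM. Gene symbols replaced by dates (27) were restored from target names.

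Levels are CPM with the SD over the libraries and exact 95% Poisson intervals. Differences used log2(CPM + 1), called at 2-fold. The exact two-sided binomial test (scipy 1.17.1, threshold 0.05, all 23930 targets) on recovered reads was an added comparison. It called 8863 targets (37.0%). It and the read recovery were checked on simulated data. TMM factors came from edgeR 4.0.16. Coordinates are from GENCODE M21 (GRCm38, the assembly of mm10), promoters from RefSeq GRCm38.p6.

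The members and lists were chosen with earlier results of these data known. All members were named. Of each related list the 2 highest genes, the lowest, those past 2-fold at a mean of 10 CPM or more, and Smo, Ptch1 and the Gli genes were to be named. Other genes were named after their values were seen. No target was used for 7 of the 158 listed genes. The alternatives were other scalings, pseudocounts, filters, thresholds and leaving out each library.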

Additional observations from a re-analysis of the deposited data

How the results depend on the processing

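Counts of members detected lay between 40 and 41 with either library left out, and the median level between 11.7 and 15.9 CPM. With limits of 0.5 and 2 CPM in both libraries, 41 and 38 members were detected. The number of members at least 2-fold higher in library 1, 1 as reported, was 2 with a pseudocount of 0.5 CPM, with TMM scaling and with median of ratios scaling, and 0 with a pseudocount of 5 CPM or among targets averaging 10 CPM or more. The members' median difference was -0.35 over the 25 members averaging 10 CPM or more and lay between -0.27 and -0.16 under the other alternatives. Of the 42 members, 41 kept their side of the threshold in the exact binomial test under TMM and median of ratios scaling, and 42 without the 10 highest targets. The exception was Ift43, called higher in library 1 with adjusted p = 0.0299 and 0.0240. At a threshold of 0.01, 4 members were called higher in library 1 and 13 in library 2. The share of all targets called at 0.01 was not computed, so these 2 counts have no background beside them. Scaling moved the median difference of all targets averaging 10 CPM or more to between -0.08 and -0.01. Depth limits the genes with few reads: Bbs5, Bbs7 and Bbs10 rest on 6 to 28 reads per library. No paired analysis was possible because there is 1 group. The results come from 2 libraries, and leaving out 1 leaves no difference to measure.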

Other observations

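Among 15 genes of centrioles and ciliogenesis measured beside the members, all reached 1 CPM in both libraries. In the exact binomial test 4 were higher in library 1 and 7 in library 2. The share called was 73.3%, beside 59.6% of targets averaging 1 CPM or more. Odf2, an appendage protein of the mother centriole, led at 62.2 and 98.1 CPM, ahead of Rab8a, a GTPase of ciliary membrane delivery, at 44.5 and 32.7 CPM, and Sclt1 was lowest at 2.47 and 1.01 CPM. The GTPase genes Rab23, a brake on Hedgehog signalling whose human gene is known for a craniosynostosis syndrome, and Rab11a were higher in library 1, at 36.7 against 14.0 CPM and 49.4 against 22.5 CPM. Rfx3, a transcription factor of ciliary genes, gave 6.18 and 24.7 CPM, and the appendage gene Fbf1 15.0 and 31.5 CPM. The CPM of Rfx3 was thus 3.99-fold higher in library 2 (adjusted p = 5.63e-20, exact binomial test).

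Members with long transcripts tended to be higher in library 2. Over 41 members the log2 difference (library 1 minus library 2) correlated with the length of the longest GENCODE transcript at r = -0.454 (Pearson) and rho = -0.372 (Spearman). Over the 13549 targets averaging 1 CPM or more that have a length these were -0.0996 and -0.144. The points share their libraries and the panel, and this relation was looked at after the values were seen. Of the 4 members with a longest transcript under 1500 bases, 3 were higher in library 1, and of the 30 at 3000 bases or more 8 were. The share of all targets of like length that were higher in library 1 was not computed. The members' median difference was 0.62 under 1500 bases (4 genes), 0.05 from 1500 to 3000 (7), -0.54 from 3000 to 5000 (19) and -0.17 at 5000 or more (11), so it did not fall steadily. Among all targets averaging 1 CPM or more, the median difference was 0.17 under 1500 bases, -0.11 from 3000 to 5000 and -0.24 at 5000 or more. The members of 5000 bases or more were thus no lower than all targets of that length.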
